A study of Arabidopsis thaliana with 54 samples.

Results

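The serine carboxypeptidase-like (SCPL) genes of Arabidopsis thaliana were followed in hypocotyls and cotyledons of seedlings given ethylene or green shade. A gene was a member when its symbol was SCPL followed by a number and an array feature (the summarised probe set of a gene) was assigned to it and to no other gene. This gave 33 features for 32 genes, of 16746 features with exactly 1 gene. SCPL50 had 2 features, and the brighter one was used. The members were SCPL15, SCPL16, SCPL18, SCPL20 to SCPL23, SCPL25 to SCPL39 and SCPL41 to SCPL50. The RefSeq gene table (assembly TAIR10.1) gives an SCPL name to 51 genes. The other 19, among them SNG1, SNG2 and BRS1, had no feature named for them alone and are not analysed here.

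Serine carboxypeptidases cut the last amino acid from a protein chain with a catalytic serine, aspartate and histidine, and the plant relatives carry a signal that sends them into the secretory pathway, towards the vacuole or the cell wall. In plants, one branch of the family has turned from cutting peptides to moving acyl groups: SNG1 and SNG2 take sinapate from its glucose ester and pass it to malate or choline, which gives seedlings and seeds their ultraviolet-absorbing sinapate esters. Another member, BRS1, is a secreted peptidase known for its effect on brassinosteroid signalling. For most of the genes measured here the substrate is not known, so they are ordered below by behaviour, and SCPL15, SCPL16 and SCPL18, which lie in the branch of the acyltransferases, form a group of their own.

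RNA was hybridised to 54 Affymetrix Arabidopsis Gene 1.1 ST arrays, 3 for each of 18 groups. All seedlings were Col-0 and 1 day old when treatment began, and grew in days of 9 h light and 15 h dark inside closed glass desiccators. Photosynthetically active radiation (PAR, in micromoles per square metre and second) was 140 in controls, with 29 of blue light in the same unit and a red to far-red ratio of 2.1. Ethylene seedlings had the same light with 1 µl per litre ethylene in the air, and shade seedlings stood under a green filter with a PAR of 40, blue light of 3 and a red to far-red ratio of 0.45. Hypocotyls and cotyledons, the latter with the shoot apical meristem attached, were dissected 1.5, 13.5 and 25.5 h after the start, and roots were discarded. Each sample pooled RNA from 2 plates of 25 seedlings, and 3 replicate experiments were run. The 13.5 h harvest fell in the dark period and the others in the light, so time and day phase cannot be told apart. Ethylene and shade were compared with the same control arrays, so their differences from control share that error, while the difference between shade and ethylene does not use controls.

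Values are RMA signals on the log2 scale, and 1 unit is a doubling. A difference passed the test when its limma p, adjusted by the Benjamini-Hochberg method over all 17504 features with a gene, was below 0.05, and errors of differences are limma standard errors. Array medians lay between 4.15 and 4.55, and the correlation between arrays within a group was 0.977 to 0.992. The mean of 4 photosynthesis genes lay at 9.24 to 10.72 on hypocotyl arrays and at 10.20 to 11.14 on cotyledon arrays, and 4 stomatal genes at 3.45 to 5.11 and 6.61 to 7.56. The meristem genes CLV3 and UFO were dim on the arrays of both organs, with means of 1.98 to 2.63 in cotyledon samples, so the meristem tissue named in the labels could not be seen with them. Ethylene raised ARL and RTE1, known ethylene-induced genes, in all 6 comparisons with control. Shade also raised both in cotyledons at 25.5 h (median 1.19). Of 6 listed shade-induced genes 3 were measured. Shade raised 2 of these at each time in hypocotyls, and 1, 1 and 3 in cotyledons in time order. Ethylene also raised 2 of the 3 in hypocotyls at 13.5 h (median 0.78) and 1 in cotyledons at 1.5 h. In hypocotyls at 25.5 h of ethylene 1 was higher and 1 lower. Of 20 listed root genes 11 were measured, and their mean lay at 5.09 to 8.85 on hypocotyl arrays and 4.66 to 6.25 on cotyledon arrays. These 11 include the 3 jacalin lectin genes named next, so the root and lectin values overlap. On 7 arrays, the jacalin lectin genes AT1G52050, AT1G52060 and AT1G52070 stood high, with means of 3.79 to 7.78 against 1.45 to 3.18 on the other 47. Of these arrays, 4 were hypocotyl controls (replicates 1 and 3 at 1.5 h and at 13.5 h), 2 were hypocotyl ethylene samples (replicate 3 at 1.5 h, replicate 1 at 13.5 h) and 1 was a cotyledon shade sample (replicate 3 at 13.5 h). Treatment calls that were lost without these arrays are given below with the value that remained. Without them the hypocotyl controls at 1.5 h and at 13.5 h are 1 array each (replicate 2), and the spread is then taken from the other groups of the fit.

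The family divided into genes with clear signal and genes near the array's floor. Averaged over all arrays, 11 members lay above the upper quartile of the tested features (6.47), 6 lay between the quartiles and 15 lay under the lower quartile (2.37). SCPL25 (9.92), SCPL34 (9.71), SCPL26 (8.85), SCPL49 (8.72), SCPL42 (8.57), SCPL35 (8.39), SCPL50 (8.03), SCPL27 (7.98), SCPL29 (7.23), SCPL45 (7.17) and SCPL48 (6.68) formed the bright set. Probe sets differ in affinity, so these positions do not rank the transcripts. Another 13 members never reached a group mean of 3 in any organ, time or treatment. The arrays measure bulk tissue, in which fewer cells of a type and less RNA per cell cannot be told apart.

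**Figure D1:**
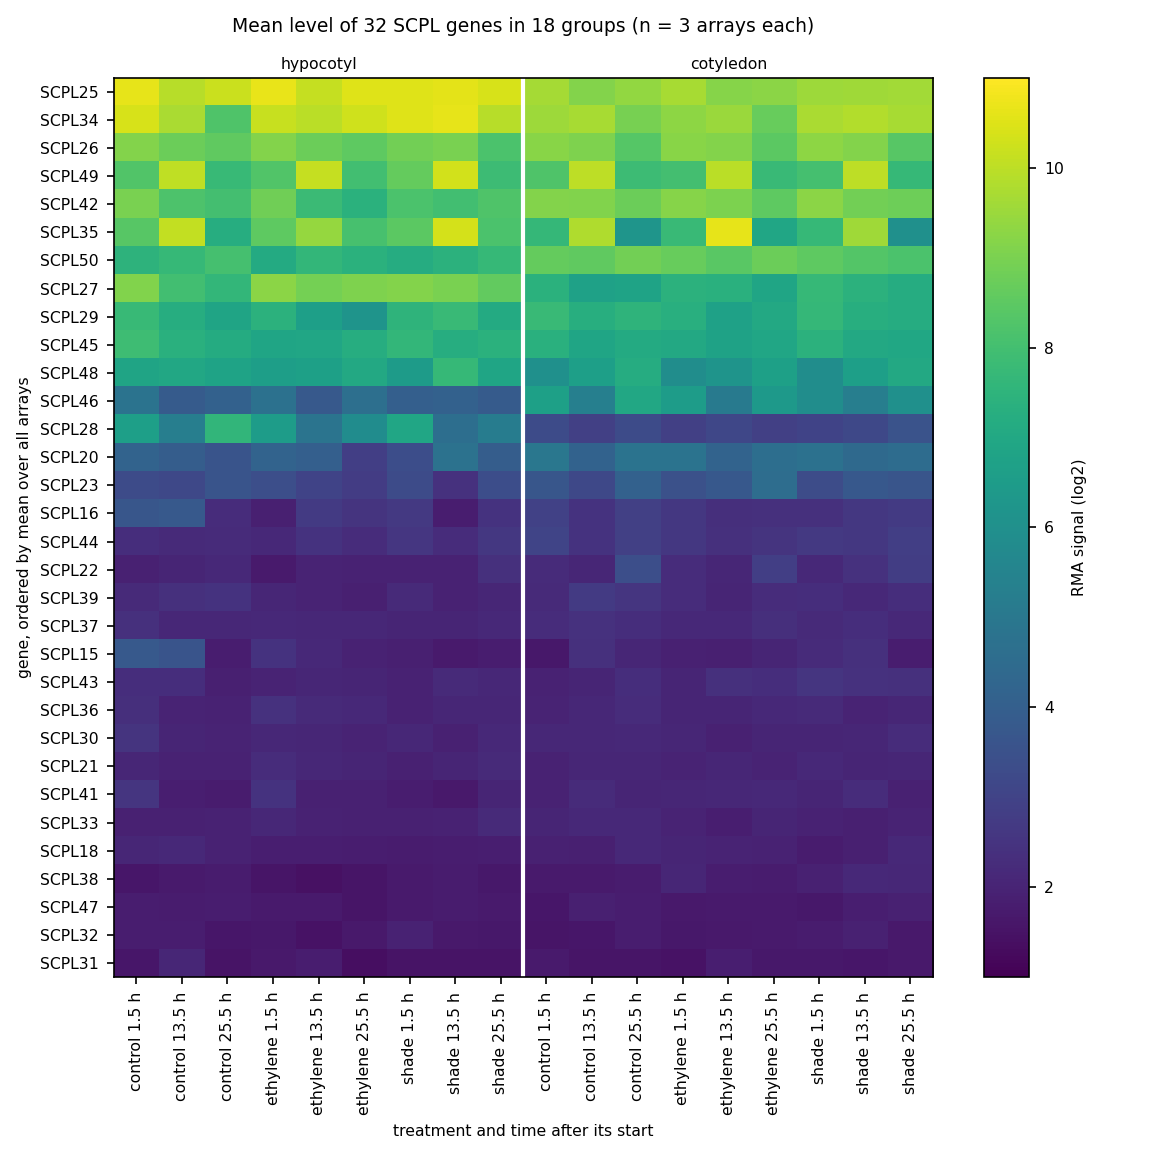
Mean RMA signal (log2, colour) of the 32 SCPL genes (rows, ordered by their mean over all arrays) in the 18 groups (columns, n = 3 arrays each), hypocotyl at the left and cotyledon at the right. SCPL49 and SCPL35 are brightest at 13.5 h in both organs, SCPL28 stands out in hypocotyl and SCPL46 in cotyledon.

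Of the 44 treatment calls of the family 36 lay in the hypocotyl, or 81.8%, against 77.9% of the calls of all features. Against control, 0 members were higher and 2 of 32 lower after 1.5 h of ethylene. Of all tested features 1.38% were higher and 1.65% lower (3.03% in all). Fewer members and fewer of all features passed there without the lectin-high arrays. At 13.5 h of ethylene 1 was higher and 3 were lower (6% and 6.04% of all features, 12% in all). There too, fewer members and fewer of all features passed without the lectin-high arrays. At 25.5 h of ethylene 5 were higher and 5 lower (11.8% and 11.1%, 22.9% in all). They became 3 and 7 when arrays were centred on reference genes, where 1429 of all features were higher and 2883 lower instead of 2066 and 1941. Under shade 1 hypocotyl member was higher and 5 were lower at 1.5 h (1.96% and 10.5%, 12.4% in all). These became 1 and 3 after normalisation within each organ, where 795 features were higher and 696 lower instead of 343 and 1836, and 0 and 1 without the 7 lectin-high arrays (54 and 318 of all features). With centring on reference genes they were 1 and 4 (498 and 885 of all features). Of the 11 root genes, which include the 3 lectin genes, 4 were also lower at this time, and 3 of these were the lectins. The part of these genes in the members' counts was not tested. At 13.5 h of shade 6 were higher and 3 lower (6.10% and 4.70%, 10.8% in all). Fewer members and fewer of all features passed there without the lectin-high arrays. In the fit of all arrays 1 root gene was higher there and 4 were lower, 3 of them the lectins. At 25.5 h of shade 3 members were higher and 2 lower (7.82% and 7.48%, 15.3% in all). The whole array moved down by a median of 0.12 in hypocotyls after 1.5 h of shade (-0.12), and this median was 0.04 after normalisation within each organ and -0.01 after centring on reference genes.

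Cotyledons had fewer calls. In limma's test 0 members passed after 1.5 h of ethylene (0.531% of all features higher, 0.474% lower, 1.01% in all) or of shade (0.206% and 0.320%, 0.526% in all), with 2 and 3 members at an unadjusted p below 0.05. At 13.5 h of ethylene 2 were higher and 1 lower (0.948% and 0.663%, 1.61% in all), and at 25.5 h 1 was lower (2.84% of all features higher and 2.36% lower, 5.20% in all). At 13.5 h of shade 2 were higher (2.05% higher and 2.50% lower, 4.54% in all), or 1 without the lectin-high arrays. At 25.5 h of shade 1 was higher and 1 lower (4.91% and 3.90%, 8.81% in all). These became 2 and 1 after normalisation within each organ (1236 and 579 of all features instead of 859 and 683). After centring on reference genes they were 1 and 2 (501 and 1066 of all features). Over both organs, 44 of 384 pairs of a member and a comparison passed, or 11.5%, against 8.18% for all features, and 18 genes took part. Of the 44 calls, 15 held under every alternative run.

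**Figure D2:**
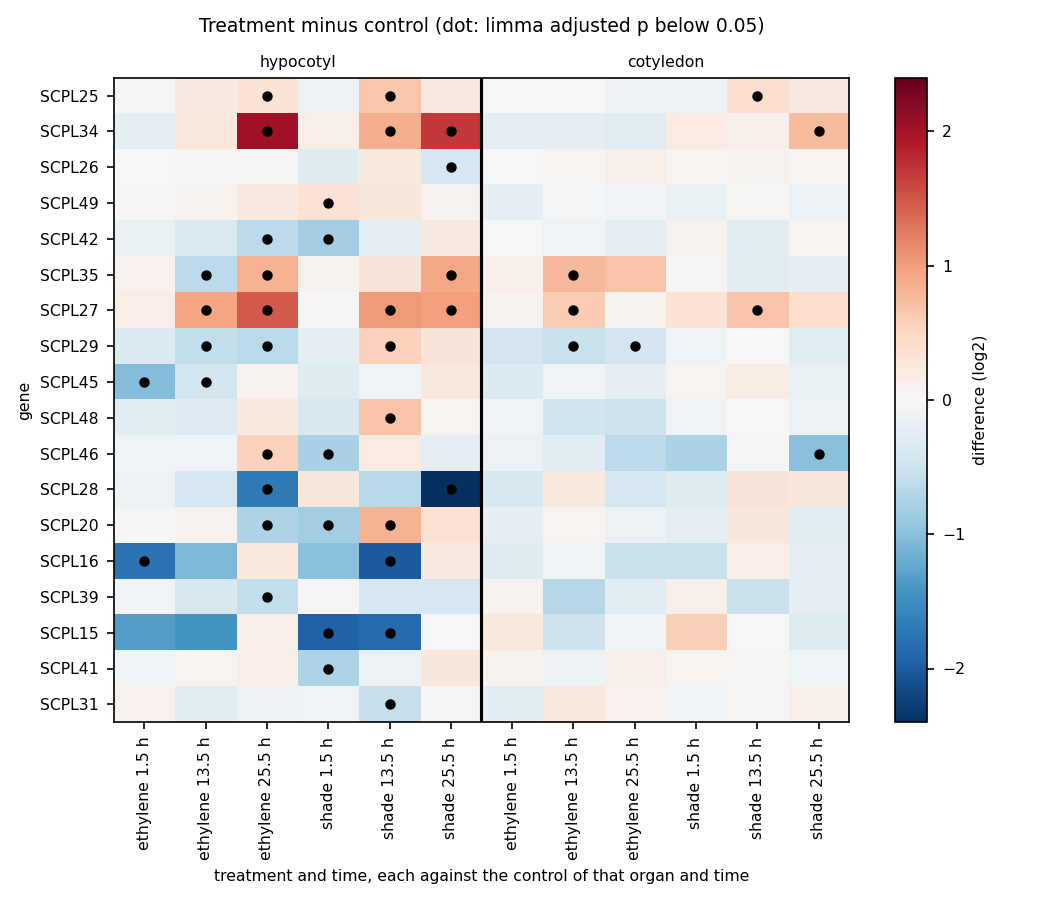
Difference of each treatment from the control of that organ and time (log2, colour, red higher and blue lower) for the 18 SCPL genes that passed in at least 1 of the 12 comparisons; black dots mark an adjusted p below 0.05. SCPL34 under ethylene at 25.5 h is the largest rise (2.03) and SCPL28 under shade at 25.5 h the largest fall (-2.40).

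SCPL34 had the largest rise of the family against control. In control hypocotyls it fell over the experiment, and both treatments left it higher. The control arrays read 10.41, 10.49 and 10.23 at 1.5 h, 9.74, 9.72 and 9.75 at 13.5 h, and 8.21, 8.28 and 8.28 at 25.5 h. Those 3 times do not overlap, and the fall between 1.5 and 25.5 h was -2.12 ± 0.12 (limma adjusted p = 4.3e-17), or 4.35-fold. With ethylene the 25.5 h arrays read 10.30, 10.38 and 10.17, and with shade 9.65, 10.00 and 10.17. Every treated array at 25.5 h therefore lay above every control array of that time. The ethylene difference at 25.5 h was 2.03 ± 0.12 (limma adjusted p = 2.4e-17), or 4.08-fold, and the shade difference 1.69 ± 0.12 (adjusted p = 1.3e-14), or 3.23-fold. Shade already differed at 13.5 h, by 0.87 ± 0.12 (10.61, 10.66 and 10.54 on the shade arrays, limma adjusted p = 6.2e-07), when ethylene stood at 9.92, 10.12 and 9.91.

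The cotyledon gave SCPL34 a different course. Its control arrays read 9.47, 9.49 and 9.59 at 1.5 h, 9.75, 9.65 and 9.71 at 13.5 h, and 8.96, 8.90 and 9.00 at 25.5 h. Shade arrays at 25.5 h read 9.79, 9.56 and 9.77 and ethylene arrays 8.64, 8.79 and 8.59. Shade was thus above and ethylene below the controls with no overlap, but the ethylene difference did not pass. The shade rise was 0.76 ± 0.12 (limma adjusted p = 1.3e-05). The response to ethylene at 25.5 h was larger in hypocotyl than in cotyledon by 2.30 ± 0.16 (adjusted p = 2.5e-13), and the response to shade by 0.93 ± 0.16 (adjusted p = 1.6e-04) at 25.5 h and 0.74 ± 0.16 (adjusted p = 0.00542) at 13.5 h. Of these 3, the last lost its call when the 4 groups were fitted alone (adjusted p = 0.107). Shade exceeded ethylene by 0.62 ± 0.12 in hypocotyls at 13.5 h (adjusted p = 8.3e-05) and by 1.03 ± 0.12 in cotyledons at 25.5 h (adjusted p = 1.2e-08). In hypocotyls at 25.5 h shade was lower than ethylene by 0.34 (-0.34 ± 0.12, adjusted p = 0.0294, with overlapping arrays), which ended on omitting shade replicate 1 (0.307) or ethylene replicate 1 (0.0775) or 2 (0.131).

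SCPL27 followed a similar line at the same 2 later times. Control hypocotyls read 9.15, 9.11 and 9.07 at 1.5 h, 8.05, 7.81 and 8.05 at 13.5 h, and 7.44, 7.79 and 7.59 at 25.5 h. Ethylene arrays read 8.62, 8.84 and 9.30 at 13.5 h and 9.04, 9.15 and 9.06 at 25.5 h. Shade arrays read 9.17, 9.00 and 8.84 at 13.5 h and 8.44, 8.81 and 8.52 at 25.5 h. Neither treatment overlapped its controls at these times, and neither passed at 1.5 h. The rises were 0.95 ± 0.16 and 1.47 ± 0.16 with ethylene (limma adjusted p = 1.6e-05 and 4.1e-10) and 1.03 ± 0.16 and 0.98 ± 0.16 with shade (adjusted p = 6.4e-06 and 5.5e-06). All 4 held under every alternative. The control fall itself, 1.50 ± 0.16 between 1.5 and 25.5 h, passed as well (fell by 1.50, limma adjusted p = 6.0e-10).

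In cotyledons SCPL27 rose at 13.5 h, by 0.60 ± 0.16 with ethylene (limma adjusted p = 0.0281) and by 0.68 ± 0.16 with shade (adjusted p = 0.00539). The control arrays read 6.48, 6.65 and 7.09, the ethylene arrays 7.41, 7.31 and 7.31, and the shade arrays 7.30, 7.30 and 7.68. The third control array came closest to the treated ones, and the groups did not overlap. Shade arrays lay above all controls at the other times too, by 0.32 at 1.5 h and 0.42 at 25.5 h, but these differences did not pass (adjusted p = 0.563 and 0.0834). The ethylene call was lost without control replicate 1 (adjusted p = 0.228) or 2 (0.154) or without ethylene replicate 1 (0.120), 2 (0.0788) or 3 (0.0670), and the shade call without control replicate 1 (0.0626) or shade replicate 3 (0.0540) or the 7 lectin-high arrays (0.56, adjusted p = 0.0504). At 25.5 h the hypocotyl response to ethylene exceeded the cotyledon response by 1.39 ± 0.22 (limma adjusted p = 6.8e-06). In controls SCPL27 was higher in hypocotyl than in cotyledon at each time, by 1.74, 1.23 and 0.82 in time order, each with a standard error of 0.16.

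**Figure D3:**
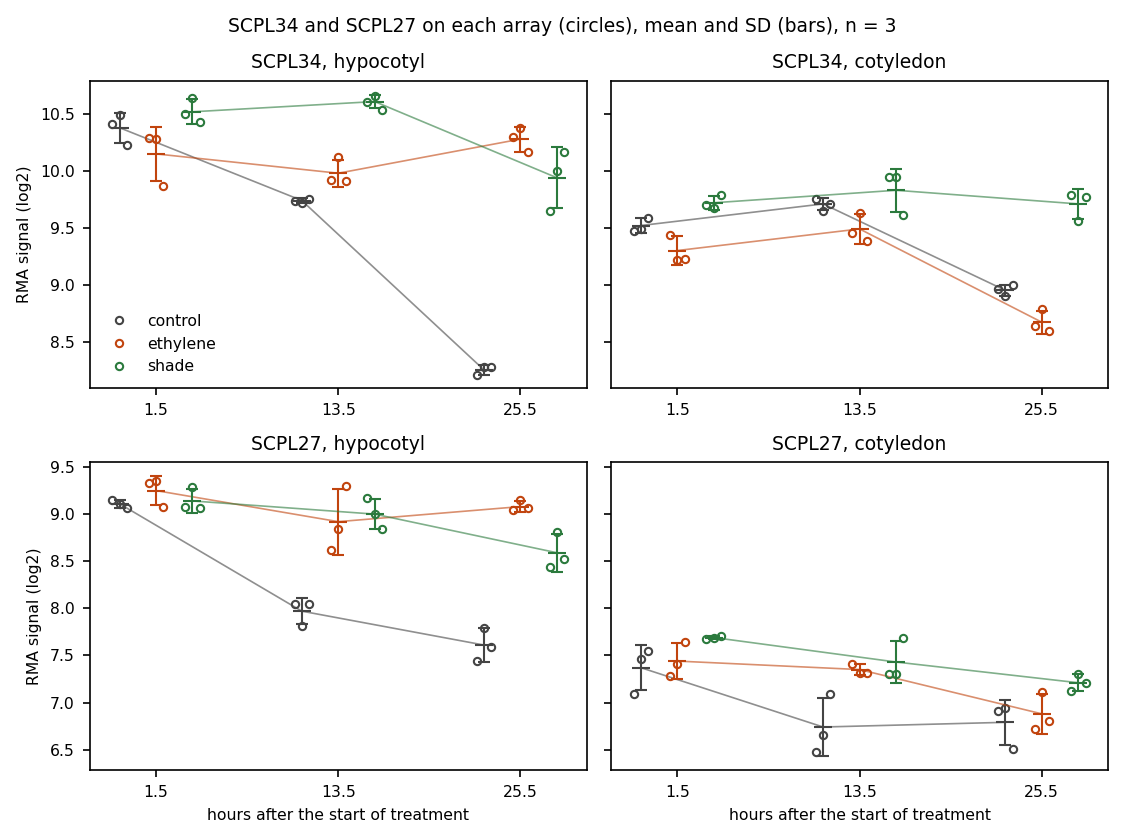
RMA signal (log2) of SCPL34 (top) and SCPL27 (bottom) on each of the 54 arrays (circles) with group mean and SD (bars, n = 3), against hours after the start of treatment. In hypocotyls at 25.5 h the SCPL34 controls lie at 8.21 to 8.28 and all treated arrays at 9.65 or above; the cotyledon ethylene arrays stay at 8.59 to 8.79.

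SCPL35 and SCPL49 changed strongly across the day in both organs. SCPL49 carries the synonym carboxypeptidase Y in the gene table, after the vacuolar protease of yeast. Its control hypocotyl arrays read 8.47, 8.12 and 8.23 at 1.5 h, 10.17, 9.86 and 10.13 at 13.5 h in the dark, and 7.91, 7.67 and 7.68 at 25.5 h. Cotyledon controls read 8.19, 8.43 and 8.05, then 10.04, 9.98 and 9.94, then 7.80, 7.93 and 7.82. The dark harvest stood apart from both light harvests in both organs. Between 1.5 and 13.5 h SCPL49 rose by 1.77 ± 0.11 in hypocotyl (limma adjusted p = 2.5e-16) and by 1.76 ± 0.11 in cotyledon (adjusted p = 3.3e-16). It then fell by 2.30 ± 0.11 and 2.14 ± 0.11 to 25.5 h (fold 4.92 and 4.41).

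Treatments hardly moved SCPL49. At 13.5 h its group means lay between 9.95 and 10.33 over all 6 groups of that time, and none of the 4 treatment comparisons at that time passed. The one difference that passed was 0.35 ± 0.11 in hypocotyl after 1.5 h of shade (limma adjusted p = 0.0294), with overlapping arrays (8.45, 8.84 and 8.60 against 8.47, 8.12 and 8.23). It was lost without control replicate 2 (adjusted p = 0.155) or 3 (0.0988) or shade replicate 2 (0.214) or 3 (0.0587), and without the 7 lectin-high arrays (0.51, adjusted p = 0.0783).

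SCPL35 shared the dark-period peak, and its response to ethylene at that time differed between the organs. Control hypocotyls read 8.51, 8.60 and 8.11, then 10.04, 9.95 and 10.22, then 7.27, 7.38 and 7.07. Control cotyledons read 7.37, 7.72 and 7.85, then 9.60, 9.52 and 10.35, then 6.23, 6.12 and 6.33. Every dark control array lay above every light control array of its organ. The fall to 25.5 h was 2.82 ± 0.21 in hypocotyl and 3.60 ± 0.21 in cotyledon (fell by 2.82 and by 3.60, limma adjusted p = 6.2e-14 and 3.1e-17). At 25.5 h the hypocotyls rose by 0.84 ± 0.21 with ethylene (8.09, 8.01 and 8.13, adjusted p = 0.00259) and by 0.93 ± 0.21 with shade (8.06, 8.00 and 8.45, adjusted p = 0.00140). Neither overlapped the controls.

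At 13.5 h of ethylene SCPL35 was lower in hypocotyl (9.48, 9.24 and 9.58) and higher in cotyledon (10.52, 10.56 and 10.73), with no overlap with controls in either organ. The hypocotyl difference was -0.63 ± 0.21 (limma adjusted p = 0.0459) and was lost on leaving out any single array of the 6, at 0.0888, 0.0567 and 0.159 for the controls in replicate order and 0.0800, 0.192 and 0.0623 for the ethylene arrays, and also without the 7 lectin-high arrays (-0.53, 0.339). The cotyledon difference was 0.78 ± 0.21 (adjusted p = 0.0480) and ended on omitting any ethylene array (replicates 1 to 3 at 0.0991, 0.118 and 0.162) or the control arrays 1 (0.231) or 2 (0.306). The difference between the organs' responses, -1.41 ± 0.30 (adjusted p = 0.00380), held under every alternative. Under shade at 25.5 h the organs' responses differed by 1.13 ± 0.30 (adjusted p = 0.0176), which was lost without hypocotyl shade replicate 3 (0.0637). Set directly against ethylene, shade was higher by 0.94 ± 0.21 in hypocotyl at 13.5 h (adjusted p = 0.00133) and 2.04-fold lower in cotyledon at that time, which also passed. In cotyledon at 25.5 h shade was lower than ethylene by 0.89 (-0.89 ± 0.21, adjusted p = 0.00343).

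SCPL28 had the largest organ difference of the family in controls. In controls it exceeded the cotyledon level in hypocotyl by 3.34 ± 0.47, 2.38 ± 0.47 and 4.28 ± 0.47 at the successive times (limma adjusted p = 1.6e-07, 9.9e-05 and 1.2e-09). Hypocotyl arrays also spread widely, with control values of 7.47, 6.86 and 5.57 at 1.5 h, 5.42, 6.08 and 4.27 at 13.5 h, and 7.60, 8.13 and 7.01 at 25.5 h. All 27 cotyledon arrays stayed between 2.58 and 4.18. At 25.5 h both treatments lowered it in hypocotyl, to 5.04, 6.49 and 6.11 with ethylene and 6.07, 4.22 and 5.25 with shade. No treated array reached the lowest control array of that time. The falls were -1.70 ± 0.47 with ethylene (limma adjusted p = 0.00570) and -2.40 ± 0.47 with shade (adjusted p = 2.0e-04).

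Of the 2 falls of SCPL28, that under shade held under every alternative, and that under ethylene was lost without ethylene replicate 1 (limma adjusted p = 0.0791) or control replicate 2 (0.0507). The response to shade at 25.5 h was lower in hypocotyl than in cotyledon by 2.66 (-2.66 ± 0.67, adjusted p = 0.0102), a call lost without hypocotyl shade replicate 2 (0.0607). The gene next to it on the chromosome, SCPL26, changed less, and its 1 treatment call was a fall in the comparison where SCPL28 fell most. SCPL26 stayed between group means of 8.17 and 9.29 in both organs, and passed in 1 treatment comparison, a fall of 0.40 under shade in hypocotyl at 25.5 h (-0.40 ± 0.10, adjusted p = 0.00439), which was lost when the 2 groups were fitted alone (0.116).

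SCPL46 had the largest difference in favour of the cotyledon. Control cotyledons read 6.58, 6.80 and 6.62 at 1.5 h, 5.38, 5.02 and 5.59 at 13.5 h, and 7.14, 6.96 and 6.95 at 25.5 h. Control hypocotyls read 4.79, 4.86 and 4.81, then 4.02, 3.68 and 3.95, then 4.11, 4.03 and 4.14. Controls of the organs did not overlap at any time, and the dark harvest was the low point in cotyledons. The organ difference was -1.85 ± 0.20, -1.45 ± 0.20 and -2.92 ± 0.20 in time order (limma adjusted p = 3.2e-10, 1.6e-07 and 2.6e-15). In cotyledons it was thus low when SCPL35 and SCPL49 were high, with a rise of 1.68 ± 0.20 from 13.5 to 25.5 h in cotyledons (adjusted p = 5.3e-09).

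Shade lowered SCPL46 in cotyledons at 25.5 h to 5.98, 6.30 and 5.73, below all controls of 7.14, 6.96 and 6.95. The fall was -1.01 ± 0.20 (limma adjusted p = 5.0e-04) and held under every alternative. Ethylene arrays at that time, 6.57, 6.16 and 6.41, also lay below all controls, but the difference did not pass. After 1.5 h of shade the cotyledon arrays, 5.94, 5.99 and 5.78, lay below all controls of 6.58, 6.80 and 6.62, and this did not pass either. In hypocotyls SCPL46 fell by 0.78 after 1.5 h of shade (-0.78 ± 0.20, adjusted p = 0.00656), a call lost without the 7 lectin-high arrays (-0.82, 0.114) and after normalisation within each organ (0.0963). It rose by 0.56 ± 0.20 at 25.5 h of ethylene (adjusted p = 0.0359), a call that ended on omitting any of the controls (0.0727, 0.103 and 0.0630) or ethylene replicate 1 (0.0823) or 3 (0.171). The organs' responses to ethylene at 25.5 h differed by 1.19 ± 0.28 (adjusted p = 0.00180), and this held under every alternative.

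**Figure D4:**
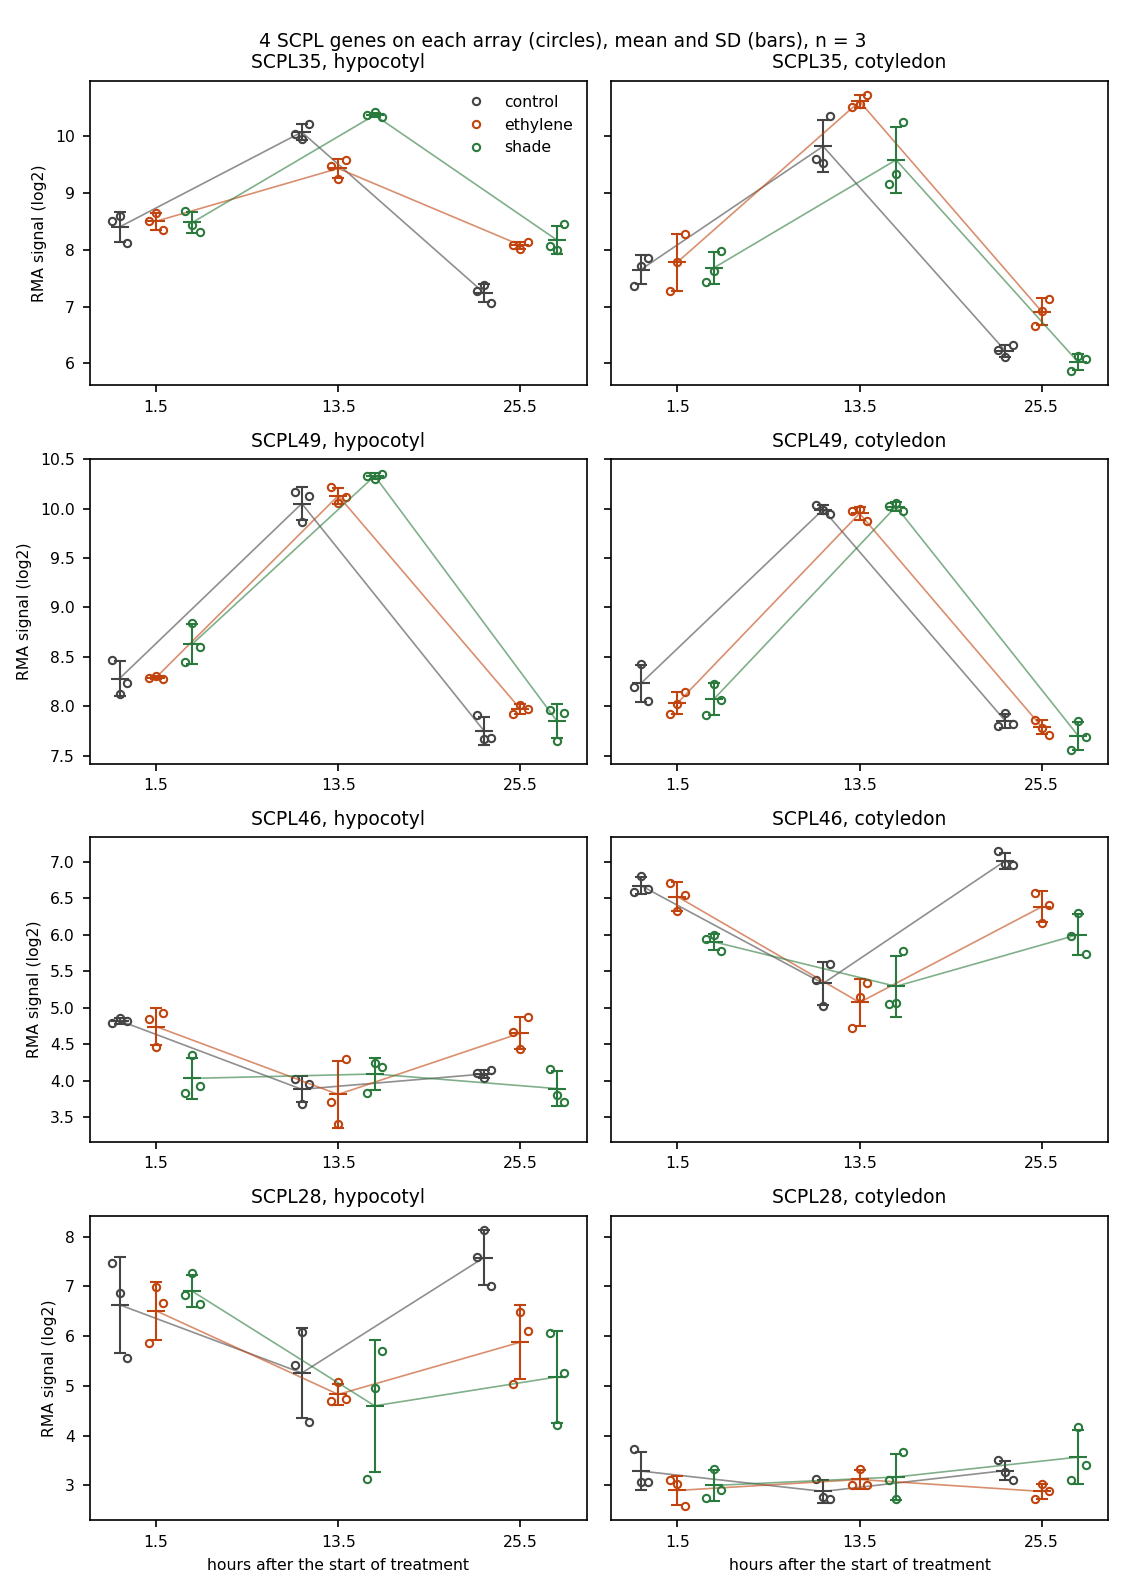
RMA signal (log2) of SCPL35, SCPL49, SCPL46 and SCPL28 on each of the 54 arrays (circles) with group mean and SD (bars, n = 3), against hours after the start of treatment. SCPL35 and SCPL49 peak at 13.5 h, the dark harvest, in both organs; SCPL46 is higher in cotyledon, and SCPL28 is seen in hypocotyl, where both treatments lie below the controls of 7.01 to 8.13 at 25.5 h.

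SCPL45 responded at the first harvest. After 1.5 h of ethylene the hypocotyl arrays read 6.81, 6.89 and 6.89 against controls of 7.91, 7.92 and 7.91. Replicates of each group lay close together, and the groups did not overlap. The fall was -1.05 ± 0.13 (limma adjusted p = 4.2e-07), or 2.07-fold, and held under every alternative. At 13.5 h the difference was -0.44 ± 0.13 (adjusted p = 0.0207), lost on omitting control replicate 1 (0.0758) or 3 (0.109) or one of the ethylene replicates 1 (0.106) and 2 (0.0761), and it was -0.19 (0.746) without the 7 lectin-high arrays. At 25.5 h the arrays of 7.28, 7.06 and 7.38 overlapped the controls of 7.10, 7.21 and 7.14. Shade stood above ethylene at 1.5 h by 0.75 ± 0.13 (adjusted p = 5.7e-05). In cotyledons SCPL45 did not pass in any treatment comparison.

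SCPL29 separated the 2 treatments. Hypocotyl controls read 7.48, 7.07 and 7.15 at 13.5 h, ethylene arrays 6.56, 6.74 and 6.62, and shade arrays 8.00, 7.79 and 7.58. The 3 groups did not overlap, with ethylene lowest and shade highest. Ethylene lowered SCPL29 by 0.59 (-0.59 ± 0.13, limma adjusted p = 6.7e-04) and shade raised it by 0.56 ± 0.13 (adjusted p = 0.00173). At 25.5 h ethylene arrays of 6.26, 6.14 and 6.14 lay below controls of 6.76, 6.72 and 7.01 (-0.65 ± 0.13, adjusted p = 7.7e-05), and shade did not pass. Shade exceeded ethylene by 1.15 ± 0.13 at 13.5 h and 0.94 ± 0.13 at 25.5 h (adjusted p = 3.0e-09 and 1.3e-07), and both of these held under every alternative. The ethylene difference at 13.5 h was -0.39 and not called (0.242) without the 7 lectin-high arrays, which left 1 control and 2 ethylene arrays, and it and the shade rise were lost when the compared groups were fitted alone (0.0788 and 0.172).

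In cotyledons ethylene lowered SCPL29 too, by 0.53 at 13.5 h (-0.53 ± 0.13, limma adjusted p = 0.0146) and by 0.44 at 25.5 h (-0.44 ± 0.13, adjusted p = 0.0263). The first call ended on omitting ethylene replicate 1 (0.0873) or 2 (0.141) or the third control array (0.0947). The second was lost without control replicate 1 (0.0699) or 3 (0.102) or without ethylene replicate 1 (0.0574), 2 (0.0664) or 3 (0.0993).

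SCPL25 was higher in hypocotyl than in cotyledon in controls by 0.96, 0.76 and 0.79 in time order (standard error 0.10 each) and rose under shade at 13.5 h by 0.67 ± 0.10 in hypocotyl (10.89, 10.51 and 10.40 against 10.01, 9.74 and 10.02, limma adjusted p = 8.9e-06) and by 0.40 ± 0.10 in cotyledon (adjusted p = 0.0169). The hypocotyl call was lost when the 2 groups were fitted alone (0.105), and the cotyledon call also without control replicate 2 (0.126) or shade replicate 2 (0.0706). With ethylene SCPL25 rose by 0.32 ± 0.10 in hypocotyl at 25.5 h (adjusted p = 0.0203), a call lost without ethylene replicate 1 (0.118) or control replicate 2 (0.0648) or 3 (0.0811).

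SCPL42 fell in hypocotyls after 1.5 h of shade (8.14, 7.90 and 8.48 against 8.70, 9.14 and 9.13) and after 25.5 h of ethylene (7.27, 7.14 and 7.73 against 8.13, 7.86 and 8.04). Neither pair of groups overlapped. The differences were -0.82 ± 0.17 (limma adjusted p = 8.1e-04) and -0.63 ± 0.17 (adjusted p = 0.00305), and the second held under every alternative while the first was lost when the 2 groups were fitted alone (0.0584). Shade exceeded ethylene by 0.86 ± 0.17 at 25.5 h (adjusted p = 9.7e-05). Its chromosomal neighbour SCPL41, with 2 genes between them, was near the floor, and passed in 1 treatment comparison, at -0.75 ± 0.21 after 1.5 h of shade (adjusted p = 0.0125), lost without shade replicate 1 (0.0610) or control replicate 3 (0.0509) or the 7 lectin-high arrays (-0.68, 0.209).

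SCPL48 rose in hypocotyls at 13.5 h of shade by 0.69 ± 0.21 (limma adjusted p = 0.0207), a call lost without shade replicate 1 (0.0772) or control replicate 3 (0.1) or the 7 lectin-high arrays (0.69, 0.123). Against ethylene, shade was higher by 1.01 ± 0.21 at that time (adjusted p = 3.3e-04), which held under every alternative. In control cotyledons SCPL48 climbed by 1.19 ± 0.21 from 1.5 to 25.5 h (5.86, 6.24 and 5.91 to 7.28, 7.33 and 6.98, adjusted p = 2.8e-05). SCPL20 was lower than control after 1.5 h of shade (-0.83 ± 0.27, adjusted p = 0.0349) and after 25.5 h of ethylene (-0.74 ± 0.27, adjusted p = 0.0393) and higher after 13.5 h of shade (0.83 ± 0.27, adjusted p = 0.0373), all in hypocotyls. Each of its 3 calls was lost on leaving out single arrays, with an adjusted p of 0.0605 to 0.143 at 1.5 h, 0.0804 to 0.224 at 13.5 h and 0.0744 to 0.229 at 25.5 h. These arrays were control replicates 1 and 2 and all 3 shade replicates at 1.5 h, control replicates 1 and 3 and all 3 shade replicates at 13.5 h, and control replicates 1 and 3 and ethylene replicates 1 and 2 at 25.5 h. Without the 7 lectin-high arrays its difference under shade was -0.80 (adjusted p = 0.264) at 1.5 h and 0.29 (adjusted p = 0.772) at 13.5 h. Shade minus ethylene at 25.5 h was 1.09 ± 0.27 for SCPL20 (adjusted p = 0.00219) and held under every alternative.

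SCPL15 and SCPL16, of the acyltransferase branch, are neighbours with 1 gene between them. Their largest differences from control rested on the arrays high in root lectins. SCPL15 read 5.31, 1.54 and 4.53 in control hypocotyls at 1.5 h and 5.54, 1.91 and 3.29 at 13.5 h. The lectin means of the same arrays were 7.28, 1.80 and 7.78, then 7.56, 1.56 and 6.48. SCPL16 read 4.63, 2.10 and 4.24, then 4.79, 2.69 and 3.88. The 11 root genes averaged 8.85, 6.35 and 8.57, then 8.45, 5.74 and 7.80, on these arrays. The lectin genes are part of this mean, so it is not a separate marker. The array with the low lectin and root means was the low one for both genes at both times. Outside the hypocotyl controls, SCPL16 was highest, at 4.26, on ethylene replicate 1 at 13.5 h, whose lectin mean was 5.14, while SCPL15 read 2.38 there. On hypocotyl ethylene replicate 3 at 1.5 h (lectin mean 3.79) SCPL16 read 1.55, its lowest value on any array, and SCPL15 read 2.81. On cotyledon shade replicate 3 at 13.5 h (lectin mean 4.37) SCPL16 read 2.26 and SCPL15 read 2.59. SCPL16 was thus not high on every lectin-high array.

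Shade arrays of SCPL15 read 1.94, 1.68 and 1.95 at 1.5 h, overlapping the controls, and 1.84, 1.56 and 1.75 at 13.5 h, below them. Ethylene arrays of SCPL16 at 1.5 h read 1.98, 2.13 and 1.55, overlapping the controls, and its shade arrays at 13.5 h read 1.77, 1.76 and 1.83, below them. Shade was lower than control for SCPL15 by 1.94 at 1.5 h (-1.94 ± 0.53, limma adjusted p = 0.0127) and by 1.86 at 13.5 h (-1.86 ± 0.53, adjusted p = 0.0165). For SCPL16 the calls were ethylene at 1.5 h (-1.77 ± 0.51, adjusted p = 0.0420) and shade at 13.5 h (-2.00 ± 0.51, adjusted p = 0.00577). Without the 7 lectin-high arrays these became 0.32 and -0.20 for SCPL15 and -0.05 and -0.91 for SCPL16, with adjusted p between 0.296 and 1.00, each resting on a single control array. Each was also lost without control replicate 1 alone (0.180 and 0.348 for SCPL15, 0.385 and 0.0827 for SCPL16). Further single arrays that ended a call were control replicate 3 (0.0958) for SCPL15 at 1.5 h, shade replicate 2 (0.0580) for SCPL15 at 13.5 h, and control replicate 3 (0.248) and ethylene replicates 1 (0.103), 2 (0.0827) and 3 (0.175) for SCPL16. The labels say that roots were discarded, and the part of root tissue in these values was not tested. SCPL18, the third gene of the branch, stayed between 1.53 and 2.72 on all arrays.

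**Figure D5:**
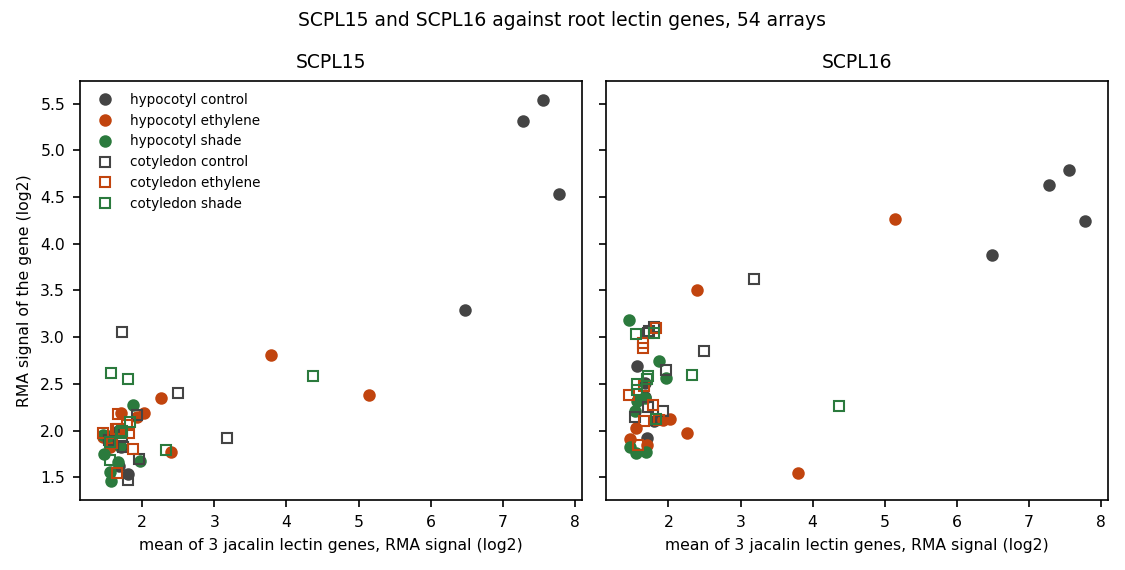
RMA signal (log2) of SCPL15 (left) and SCPL16 (right) on each of the 54 arrays against the mean RMA signal of 3 jacalin lectin genes on the same array; colour gives the treatment, filled circles are hypocotyl and open squares cotyledon. The 4 hypocotyl control arrays with lectin means of 6.48 to 7.78 hold the 4 highest values of SCPL15 and 4 of the 5 highest of SCPL16.

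Among the dim members, SCPL31 and SCPL39 each passed in 1 treatment comparison. SCPL31 was lower at 13.5 h of shade in hypocotyl (-0.55 ± 0.14, limma adjusted p = 0.00823, lost without shade replicate 1 at 0.0539 and without the 7 lectin-high arrays, where it was -0.56, at 0.0741), and SCPL39 at 25.5 h of ethylene (-0.60 ± 0.19, adjusted p = 0.0185, lost on omitting ethylene replicate 2 at 0.0800 or the control arrays 1 at 0.0869 or 2 at 0.0939). Group means in these contrasts were 1.53 to 2.47. SCPL22, SCPL23, SCPL30, SCPL44 and SCPL50 passed in comparisons of organs or times only. SCPL22 rose in control cotyledons to 3.40 ± 0.38 (SD, n = 3) at 25.5 h, from 2.24 ± 0.12 at 1.5 h (1.16 ± 0.21, adjusted p = 5.1e-05), and its tandem neighbour SCPL23 to 4.10 ± 0.66 from 3.15 ± 0.59 at 13.5 h (0.95 ± 0.35, adjusted p = 0.0393, lost without control replicate 1 of either time at 0.205 and 0.315 or replicate 3 of 13.5 h at 0.132).

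The 9 remaining genes, SCPL18, SCPL21, SCPL32, SCPL33, SCPL36, SCPL37, SCPL38, SCPL43 and SCPL47, passed in none of the 33 comparisons of limma's fit. Their array values lay between 1.32 and 2.97. Of their 297 pairs of gene and comparison, 12 had an unadjusted p below 0.05, the lowest adjusted p was 0.0895, and the largest difference was 0.95. SCPL36, SCPL37 and SCPL39 stand side by side on the chromosome, as do SCPL22 with SCPL23 and SCPL26 with SCPL28. Cross-hybridisation between such neighbours was not tested, so values of the dim ones are uncertain.

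Setting shade directly against ethylene, which uses no control array, gave 27 calls over 192 pairs, or 14.1% against 11.8% for all features. In hypocotyls 3 members were higher and 5 lower under shade at 1.5 h (4.11% of all features higher, 12.7% lower, 16.8% in all). This split became 3 and 1 after normalisation within each organ (1298 and 969 of all features instead of 720 and 2227). It became 3 and 2 after centring on reference genes (897 and 1236 of all features). Without the lectin-high arrays fewer members and fewer of all features passed. At 13.5 h 5 were higher and 0 lower (8.21% and 6.53%, 14.7% in all), namely SCPL25, SCPL29, SCPL34, SCPL35 and SCPL48. At 25.5 h 3 were higher and 4 lower (9.85% and 10.2%, 20.0% in all), SCPL20, SCPL29 and SCPL42 being the higher ones and SCPL26, SCPL27, SCPL34 and SCPL46 the lower. In cotyledons 1 was higher at 1.5 h (1.22% higher and 0.988% lower, 2.21% in all). Under either of those scalings 0 passed, with 273 and 139 of all features after normalisation and 162 and 175 after centring. At 13.5 h 2 were higher and 1 lower (2.86% and 1.95%, 4.80% in all), and so at 25.5 h (6.34% and 6.03%, 12.4% in all). The latter became 1 and 1 after centring on reference genes (935 and 1151 of all features instead of 1110 and 1055).

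The difference between the organs' responses was tested in 6 comparisons, with 11 calls over 192 pairs (5.73% against 4.95%) for 8 genes. For ethylene 0 members passed at 1.5 h in limma's test (0.103% of all features with the higher response in hypocotyl, 0.0343% with the lower, 0.137% in all), with 3 members at an unadjusted p below 0.05. At 13.5 h of ethylene 1 was lower (1.75% higher and 1.38% lower, 3.12% in all), and at 25.5 h 4 were higher (7.07% and 7.68%, 14.8% in all). For shade 1 was lower at 1.5 h (0.411% and 1.75%, 2.16% in all), 1 was higher at 13.5 h (2.13% and 1.79%, 3.91% in all), and 3 were higher and 1 lower at 25.5 h (2.74% and 2.89%, 5.63% in all). At 1.5 h of shade the call, SCPL42, was negative, while both other scalings gave 1 positive call and SCPL42 did not pass. Of all features 72 were higher and 306 lower before these scalings. Those counts were 91 and 80 after normalisation within each organ and 90 and 65 after centring on reference genes. At 25.5 h of shade the split of 3 higher and 1 lower became 4 and 2 after normalisation within each organ (481 and 624 of all features instead of 480 and 506). It became 2 and 2 after centring on reference genes (355 and 625 of all features). The 4 genes under ethylene at 25.5 h were SCPL25, SCPL27, SCPL34 and SCPL46, each with the higher response in hypocotyl. Their number was 3 after normalisation within each organ (1299 of all features higher and 1309 lower). It was also 3 after centring on reference genes (1034 and 1581 of all features).

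Organ differences in controls were common in the family as in the array at large. At 1.5 h 10 members were higher in hypocotyl and 4 in cotyledon (27.0% and 15.6% of all features, 42.6% in all). The counts were 6 and 4 at 13.5 h (15.6% and 14.8%, 30.5% in all) and 4 and 8 at 25.5 h (16.0% and 14.5%, 30.5% in all). After centring on reference genes, the all-feature median at 1.5 h was -0.20 instead of 0.08 and the members' counts were 6 and 10. Without the lectin-high arrays the hypocotyl controls at 1.5 and 13.5 h are 1 array each, and fewer members and fewer of all features passed. In the comparison of all arrays 10 and 9 of the 11 root genes were higher in hypocotyl at these times. SCPL25, SCPL27 and SCPL28 were higher in hypocotyl and SCPL46 in cotyledon at all 3 times, under every scaling run. SCPL50 appeared higher in cotyledon by its brighter feature (-1.16 ± 0.29, -0.86 ± 0.29 and -0.83 ± 0.29, limma adjusted p = 0.00102, 0.0200 and 0.0258). Its dimmer feature gave 0.12, -0.15 and 0.50, with adjusted p of 0.624, 0.592 and 0.0265, so the 2 features of SCPL50 disagree.

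Across time, 60 of 192 pairs passed in controls (31.2% against 24.7%). In hypocotyl 3 members rose and 11 fell between 1.5 and 13.5 h (10.5% and 20.7% of all features, 31.2% in all). Between 1.5 and 25.5 h 0 rose and 14 fell (10.1% and 21.8%, 31.9% in all), and between 13.5 and 25.5 h 1 rose and 7 fell (10.3% and 12%, 22.2% in all). Without the lectin-high arrays fewer members and fewer of all features passed in each of these 3 comparisons. The hypocotyl controls at 1.5 and 13.5 h are then 1 array each. In the fit of all arrays 3, 9 and 7 of the 11 root genes fell in these comparisons and 1 rose in the first. The 3 lectin genes, which are among the 11, gave 0, 3 and 3 of these falls. The part of these genes in the members' counts was not tested. With reference genes as the centre, the all-feature median between 1.5 and 25.5 h was 0.16 instead of -0.11, and the members' split became 3 and 9. Between 13.5 and 25.5 h it became 2 and 6 (2275 and 1522 of all features), or 2 and 7 after normalisation within each organ (1755 and 2243). In cotyledon 3 rose and 6 fell between 1.5 and 13.5 h (9.48% and 8.96%, 18.4% in all), 2 rose and 5 fell between 1.5 and 25.5 h (7.08% and 9.93%, 17.0% in all), and 4 rose and 4 fell between 13.5 and 25.5 h (11.3% and 16.2%, 27.5% in all). After centring on reference genes the first became 2 and 8 (1023 and 2673 of all features instead of 1659 and 1568). The last became 10 and 4, where the all-feature median was then 0.22 instead of 0.00. The falls of SCPL34 and SCPL27 in hypocotyl between 1.5 and 25.5 h, and the dark-period peaks of SCPL35 and SCPL49, held under every scaling.

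Few genes of the pathways around the acyltransferase members were measured under their own name. Of 23 listed sinapate and phenylpropanoid genes, 4 were measured, and they gave 13 calls over 48 pairs in the 12 treatment comparisons, or 27.1%, against 8.18% for all features. Rises were called for 2 of the 4 in hypocotyls at 13.5 h of shade (ALDH2C4 by 0.52 and HCT by 0.42) and for UGT84A3 in cotyledons at 13.5 h of ethylene (0.85 ± 0.22, limma adjusted p = 0.0373). UGT84A3, which encodes a glucosyltransferase that makes hydroxycinnamate glucose esters, fell by 2.56 in cotyledons at 25.5 h of shade (-2.56 ± 0.22, limma adjusted p = 9.8e-11), where 3 of the 4 were lower and the list's median was -0.40 against 0.02 for all features. HCT, which makes shikimate esters on the way to lignin, fell by 0.88 in hypocotyls at 25.5 h of ethylene (-0.88 ± 0.11, adjusted p = 2.3e-08), where it was the 1 of the 4 that passed and the median was -0.37 against -0.02.

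The anthocyanin list had 6 measured genes of 27 and 20 calls over 72 pairs, or 27.8%, against 8.18% for all features. In hypocotyls at 25.5 h of shade 5 of the 6 were lower, with a median of -2.38 against 0.02 for all features. DFR, which encodes dihydroflavonol reductase, fell the most there (-4.53 ± 0.68, limma adjusted p = 2.0e-06). In cotyledons at 25.5 h 4 were lower under shade, with a median of -1.69, while 3 were higher with ethylene, with a median of 1.84. AT5MAT, an anthocyanin malonyltransferase gene, rose the most with ethylene (2.31 ± 0.43, adjusted p = 3.2e-04). Of the 22 listed brassinosteroid genes, 0 were measured under a name of their own.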

How the data were processed

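The authors deposited log2 RMA values of 54 arrays, per the labels. Per the submitters' processing notes, the tools were RMA, Affymetrix Expression Console 1.4 and Transcriptome Analysis Console 3.0, the last with no stated role. The genome build and annotation behind the values are not named in the labels. Probe names came from the platform annotation: of 38408 features, 16746 had 1 gene, 758 several and 20904 none, and 16601 of those with 1 gene matched the RefSeq table. The number of arrays limits the precision.

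A single model with 18 group means was fitted to all 54 arrays in limma 3.58.1 under R 4.3.3, and 33 contrasts were tested with Benjamini-Hochberg adjustment within each contrast over 17504 features. The procedure was tested on simulated data. Members of a call with a change of at least 1 on the log2 scale in a treatment contrast are shown array by array. From pathway lists the called gene with the largest rise or fall in a contrast could be named. The members and lists were chosen with earlier results of these data known. Alternatives were 2 other scalings (quantile normalisation within each organ, centring on 11 reference genes), other feature filters, fits on the compared groups alone, array quality weights, another prior, a replicate block, leaving out each array, and leaving out the 7 lectin-high arrays or fitting the lectin mean. That lectin group was defined from the data, as arrays over 2 log2 units above the median hypocotyl array. The labels do not say that replicate numbers mark the same experiment, so p-values measure the spread between pooled samples. No sequences are shown, since no sequence table was used here.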

Additional observations from a re-analysis of the deposited data

Results flagged for a closer look

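The response to treatment differed between hypocotyl and cotyledon for 8 SCPL genes in 11 tests of the difference itself in limma. Each value here is the hypocotyl response minus the cotyledon response on the log2 scale. SCPL34 stood out 3 times, with 2.30 under ethylene at 25.5 h (2.03 in hypocotyl, -0.28 in cotyledon), 0.93 under shade at 25.5 h (1.69 and 0.76) and 0.74 under shade at 13.5 h (0.87 and 0.13). SCPL27 gave 1.39 under ethylene at 25.5 h (1.47 and 0.09), and SCPL46 gave 1.19 at the same time (0.56 and -0.63). SCPL35 gave -1.41 under ethylene at 13.5 h (-0.63 and 0.78) and 1.13 under shade at 25.5 h (0.93 and -0.20). SCPL28 gave -2.66 under shade at 25.5 h (-2.40 and 0.27).

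The others were smaller or less stable. SCPL25 gave 0.45 under ethylene at 25.5 h (0.32 and -0.13, adjusted p = 0.0310), and the call was lost without any 1 of 6 arrays (adjusted p of 0.0530 to 0.0979). SCPL29 gave 0.57 under shade at 25.5 h (0.30 and -0.28, adjusted p = 0.0472), lost without any 1 of 10 arrays (0.0545 to 0.138). SCPL42 gave -0.91 under shade at 1.5 h (-0.82 and 0.09, adjusted p = 0.0297), lost without any 1 of 9 arrays (0.0501 to 0.0949). The cause of these differences was not tested.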

How the results depend on the processing

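Of 178 calls of a member in a comparison, 87 held under every alternative run. Calls lost numbered 59 in fits on the compared groups alone, 41 without the 7 lectin-high arrays, 28 with the lectin mean as a covariate, 27 after centring on reference genes, 17 after normalisation within each organ, 4 over all features, 2 with quality weights and 1 with another prior. None was lost with features under 2.37 left out (157 calls). On the compared groups alone, calls numbered 21 for treatment (44 in the fit over all arrays), 16 for shade against ethylene (27) and 7 for differences between organs' responses (11), which became 17 with array quality weights. With fewer arrays these fits have fewer degrees of freedom. Leaving out 1 array gave 38 to 47 treatment calls, 21 to 29 for shade against ethylene, 33 to 37 for organs, 57 to 62 for times and 9 to 14 for differences between responses. The list counts ranged over 10 to 14 (sinapate) and 17 to 23 (anthocyanin).

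The sign turned without the 7 lectin-high arrays for SCPL15 under shade at 1.5 h (0.32), between organs at 1.5 h (-0.12) and between 25.5 and 1.5 h in control hypocotyls (0.27), and for SCPL16 in the last of these (0.16). It turned with the dimmer feature of SCPL50 between organs at 1.5 h (0.12) and 25.5 h (0.50). The cause was not tested. With the replicate number as a block, calls numbered 49, 27, 36, 61 and 12 for treatment, shade against ethylene, organ, time and differences between responses, and all 178 calls were kept. Same-numbered deviations of treatment and control correlated at -0.19 to 0.29, and all were over 0.1 in 1 of 12 treatment contrasts, so the numbers were not taken to pair the samples. This check did not compare the organs. At 13.5 h ARL and RTE1 averaged highest on replicate 3 in control and shade samples of both organs (7.82, 7.85 and 8.81 in control hypocotyls, 7.31, 7.01 and 8.97 in shaded cotyledons), though not in ethylene samples. An effect of the replicate across organs was not tested. Of the members 15 lie under the lower quartile of 2.37, and how far their signal stood above background could not be tested from these values.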
